A study of Mus musculus with 15 samples.

Results

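A group of 10 genes of the NF-kB pathway was followed through RNA sequencing of cultured mouse hepatocytes. They are the subunit genes Nfkb1, Nfkb2 and Relb, the inhibitor and IkB-like genes Nfkbia, Nfkbie, Nfkbiz and Bcl3, and the signalling and ubiquitin regulators Tnfaip3, Ripk2 and Birc3. They were chosen by symbol from a table of exon counts, where each symbol matched 1 row, and make up 10 of the 38087 genes listed. All 10 passed the filter on low counts, which left 17405 genes. The hepatocytes, the main metabolic cells of the liver, were cryopreserved cells of CD-1 mice, thawed, plated on collagen and left for 6 h to attach. On the following day they received 25% mouse serum for 24 h, and then mouse growth hormone (GH) at 8 ng per ml or its PBS vehicle for 2 h.

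The libraries used number 13, in 5 groups. Male hepatocytes in serum of conventionally raised male mice gave 3 libraries (m_pHep_m_ConvR). Germ-free female mice, which have no microbiota, provided the serum for female hepatocytes that gave 3 libraries with GH (f_pHep_f_GF_serum_GH) and 2 without it (f_pHep_f_GF_serum). Female hepatocytes gave 3 libraries in serum of conventionally raised males (f_pHep_m_ConvR) and 2 in serum of conventionally raised females (f_pHep_f_ConvR). All groups without GH had the vehicle, as far as the protocol says. All groups shared a Geltrex overlay and a medium with dexamethasone, a glucocorticoid, and with insulin, transferrin, albumin and antibiotics. The labels give no genotype beyond CD-1, no age, and no strain for the serum donors. Each sex of hepatocyte is its own donor stock, so donor sex and donor stock cannot be told apart. Nothing says that replicates came from separate cultures, animals or serum pools, so the p-values measure a spread between libraries that may be technical.

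NF-kB transcription factors are dimers that IkB proteins hold in the cytoplasm. Receptors for TNF, IL-1 and microbial products activate a kinase complex that marks the IkB proteins for destruction, and the dimers then enter the nucleus. Among the genes they switch on are those of their own inhibitors and regulators, which makes the pathway a feedback loop. In the liver the pathway takes part in the acute phase response and in protection of hepatocytes from cell death.

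Promoter sequence was available for 6 of the 10 genes, in 9 windows of 300 bases around annotated starts (250 before and 50 after; RefSeq, GRCm38.p6). None was available for Nfkb1, Relb, Nfkbiz and Ripk2. The counts below therefore leave out Nfkbiz and Ripk2, which rose with GH. The kappa B decamer, the consensus that NF-kB dimers bind, was searched on both strands and was found in 7 of the 9 windows, belonging to 5 of the 6 genes. Of the 3 Nfkb2 windows 2 overlap and hold the same GGGACTTTCC site, so these counts are not of independent windows. Of all 32851 windows of the same length, 8.46% held it. The core TTCNNNGAA, recognised by STAT5, the factor that the GH receptor activates, was in 8.3% of all windows and in 1 of these 9, the first Nfkb2 window. The matches describe letters in a window and not binding. For 4 of the windows, the 250 bases before the start are printed 5′ to 3′ on the strand of the gene, with the kappa B matches in capitals. They show 3 genes that rose with GH, and Nfkb2, which held kappa B matches and did not pass the test there.
Nfkbia, chr12:55492648-55492897, minus strand: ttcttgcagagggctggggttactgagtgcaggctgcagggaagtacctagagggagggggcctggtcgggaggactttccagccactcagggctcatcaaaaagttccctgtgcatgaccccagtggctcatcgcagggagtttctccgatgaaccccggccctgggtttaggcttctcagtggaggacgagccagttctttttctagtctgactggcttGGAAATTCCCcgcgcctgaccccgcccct
Tnfaip3, first start, chr10:19015411-19015660, minus strand: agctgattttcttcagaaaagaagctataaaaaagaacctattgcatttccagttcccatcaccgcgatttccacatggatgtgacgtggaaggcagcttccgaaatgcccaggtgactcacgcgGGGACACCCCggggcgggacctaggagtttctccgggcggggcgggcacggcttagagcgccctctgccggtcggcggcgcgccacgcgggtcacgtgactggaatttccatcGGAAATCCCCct
Birc3, chr9:7873171-7873420, minus strand: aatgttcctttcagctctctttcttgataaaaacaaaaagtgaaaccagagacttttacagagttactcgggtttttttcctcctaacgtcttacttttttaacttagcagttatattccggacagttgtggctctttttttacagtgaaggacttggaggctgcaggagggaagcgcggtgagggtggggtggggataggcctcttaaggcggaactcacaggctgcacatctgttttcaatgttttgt
Nfkb2, first start, chr19:46304487-46304736, plus strand: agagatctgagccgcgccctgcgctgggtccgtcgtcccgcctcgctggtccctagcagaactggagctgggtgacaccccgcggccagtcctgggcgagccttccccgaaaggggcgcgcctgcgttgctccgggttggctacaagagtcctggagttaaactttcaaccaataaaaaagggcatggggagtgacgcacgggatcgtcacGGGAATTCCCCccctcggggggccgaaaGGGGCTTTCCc

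In the Nfkbia stretch the match GGAAATTCCC ran from base -29 to base -20, counted from the start. Tnfaip3 held GGGACACCCC from -125 to -116 and GGAAATCCCC from -12 to -3, while its second window held none. Nfkb2 held GGGAATTCCCC from -39 to -29, made of overlapping matches, and GGGGCTTTCC from -11 to -2. No match was in the Birc3 window. Nfkbie held 1 match, GGGGGATTCC, from -106 to -97, and Bcl3 held 1, GGGAAGTCCC, from 3 to 12 after the start.

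The libraries held 34097400 to 48742274 counts. Xist, which is expressed from the inactive X chromosome of female cells, had 0 to 3 counts in the male libraries and 9654 to 32396 in the female ones, as labelled. GH replicate 1 (32396) and conventional female serum replicate 2 (23315) were richest in Xist. GH replicate 1 also stood apart from its group, with a chi-square per degree of freedom of 40.98 and 36.98 against its replicates, which differed from each other by 9.262. Replicate 1 of female cells in male serum likewise stood apart (53.36 and 44.97, against 21.47). The 2 conventional female serum libraries, the baseline of both serum comparisons below, differed from each other by 34.17, and the 2 germ-free ones by 14.21. All 10 listed hepatocyte markers were detected, at summed levels of 20830 to 21940 CPM in male and 7381 to 8876 CPM in female libraries. CPM, the standard unit of counts normalised for sequencing depth, was computed here on library sizes scaled by TMM. Of 12 Kupffer cell and macrophage markers none was at 0 in every library, but Cd68, which other cells also express, made up most of their sum. Adgre1 reached at most 0.713 CPM, Clec4f 3.53 CPM and Timd4 0.0865 CPM. In bulk RNA, fewer cells of a type and less RNA per cell cannot be told apart.

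Per kilobase of exon and averaged over the 13 libraries, Nfkbia was the most abundant of the 10 genes at 59.7 CPM per kb and Nfkbie the least at 2.02 CPM per kb. Nfkb2 stood at 25.0, Tnfaip3 at 23.5, Ripk2 at 13.6, Birc3 at 11.8 and Nfkbiz at 11.2 CPM per kb. Relb at 8.68, Nfkb1 at 7.93 and Bcl3 at 7.50 CPM per kb lay close together. These levels divide by the union of all annotated exons, which counts exons that a cell may not use. The subunit genes varied least: their highest library exceeded the lowest 1.36 times for Nfkb1, 1.37 times for Nfkb2 and 1.35 times for Relb. The same ratio was 3.52 for Ripk2, 3.18 for Tnfaip3, 2.89 for Nfkbiz and 2.30 for Nfkbie.

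**Figure D1:**
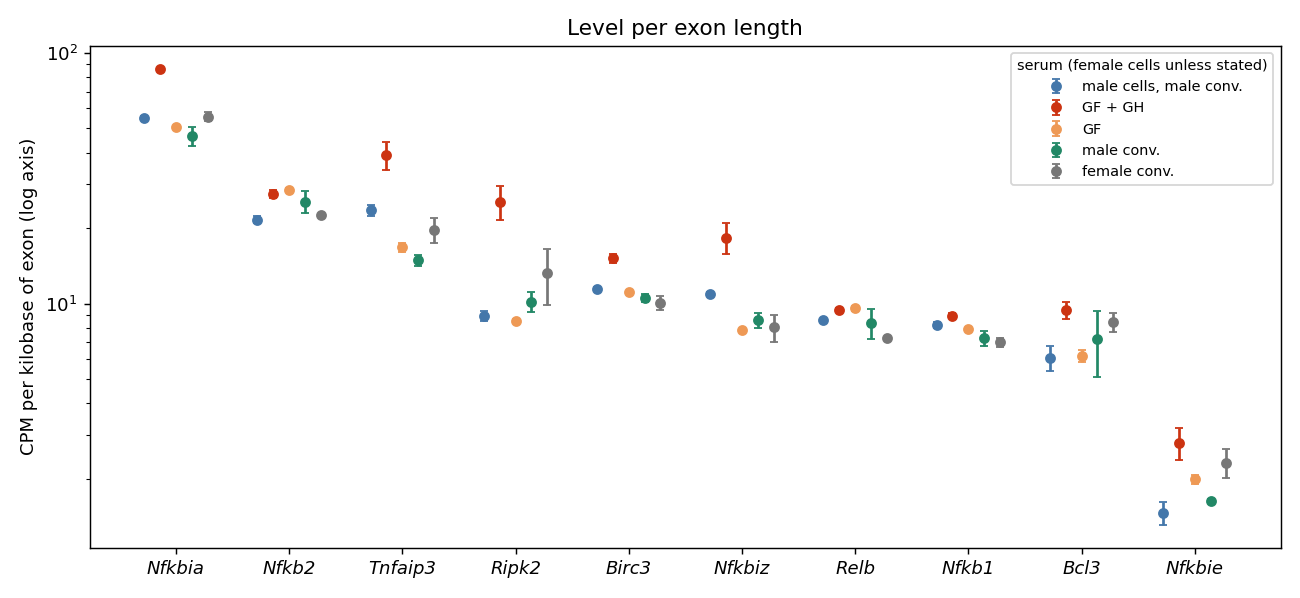
Mean level of each of the 10 genes in each group, in CPM per kilobase of exon on a log axis, with bars for the SD over 2 or 3 libraries. Nfkbia is highest in every group, at 46.5 to 86.2 CPM per kb, and Nfkbie lowest, at 1.47 to 2.77 CPM per kb.

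The GH group had the highest mean of the 5 groups for 8 of the 10 genes, and germ-free serum without GH for the other 2, Nfkb2 and Relb. Conventional female serum and male hepatocytes were each lowest for 3 genes, and germ-free serum and female cells in male serum each for 2. The order was clearest for Tnfaip3, where none of the neighbouring groups overlapped: GH libraries ran from 251 to 322 CPM, male hepatocytes from 161 to 175 CPM, conventional female serum from 130.2 to 153 CPM, germ-free serum from 118 to 124 CPM and female cells in male serum from 101 to 111 CPM. It was least clear for Bcl3, where each group overlapped the next one, with means of 15.0 to 23.4 CPM.

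**Figure D2:**
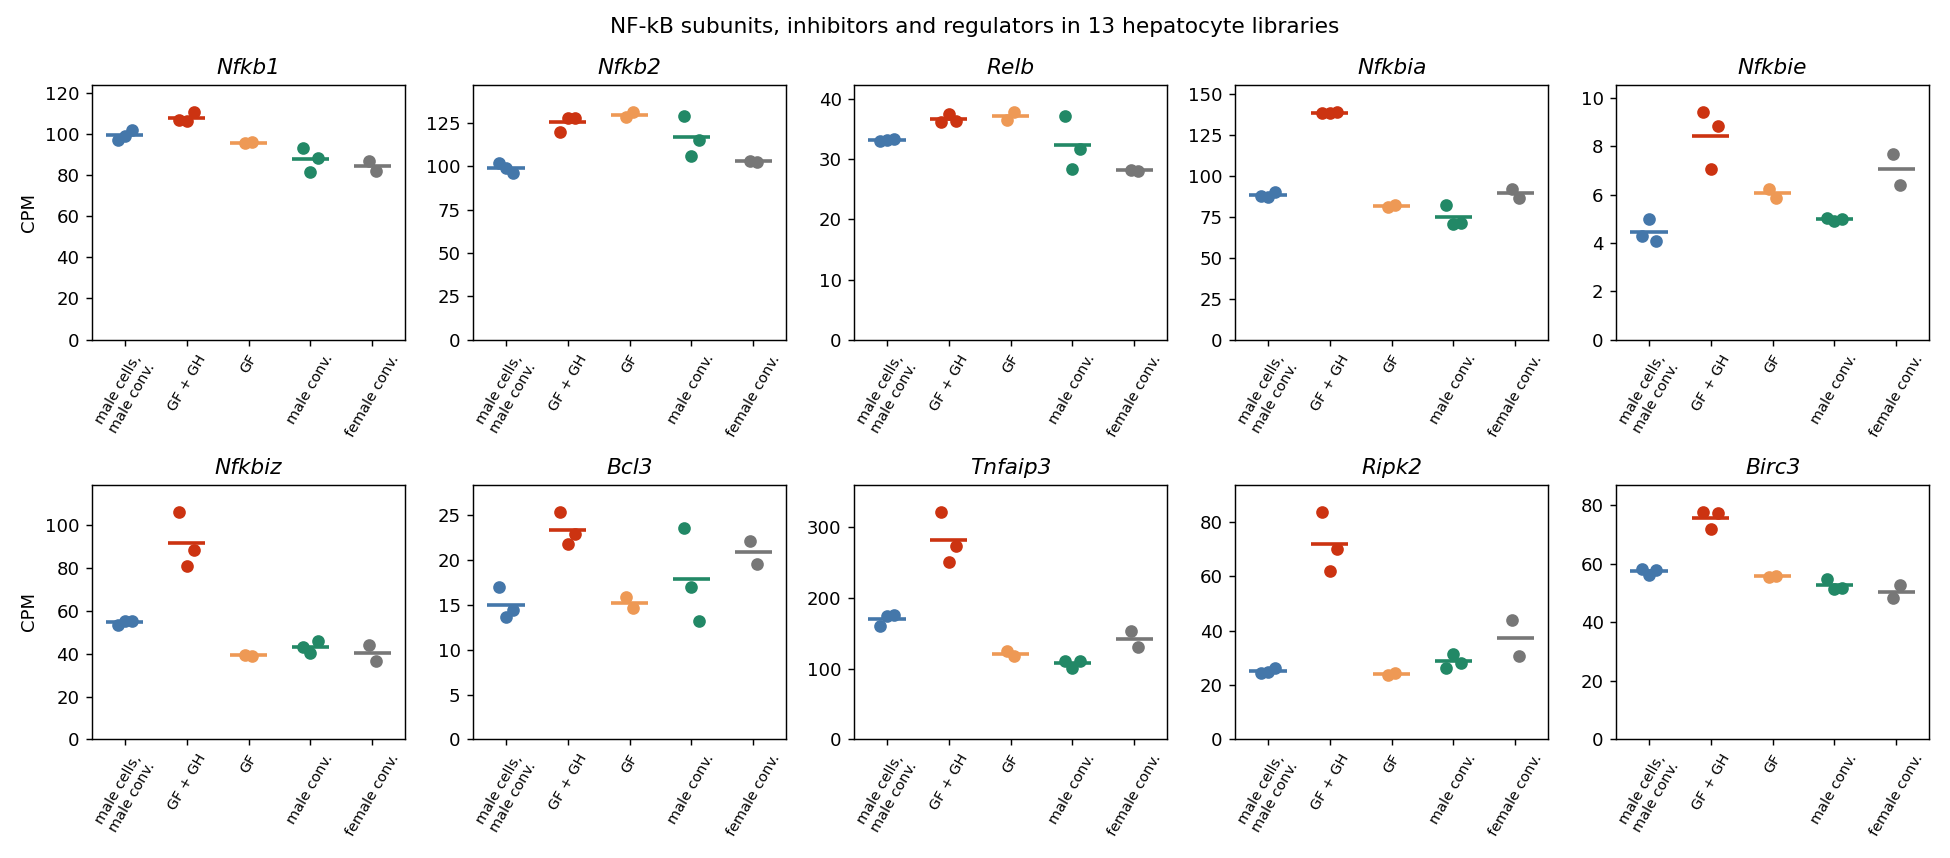
CPM of each gene in each of the 13 libraries (points) with the group mean (line), 1 panel a gene and each axis starting at 0. Tnfaip3, Ripk2, Nfkbiz, Nfkbia, Birc3 and Nfkb1 stand higher in all 3 GH libraries than in all 10 others. Bcl3, Nfkbie, Nfkb2 and Relb show no such step. For Nfkb1 the margin is small, with at least 106.1 CPM against at most 101.9 CPM. No share of all genes with such a step is given here.

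The first comparison asked what 2 h of GH did to female hepatocytes in germ-free serum (3 libraries against 2). Of the 10 genes 5 rose and none fell, where 0.586% of all genes tested passed (89 rose, 0.511%, and 13 fell). The 10 genes were chosen with earlier results of these data known, so this difference tests nothing about the set. The genes that rose were Nfkbia, Nfkbiz and all 3 signalling regulators. Their fold changes ran from 1.36 for Birc3 to 2.99 for Ripk2. The subunit genes did not pass. The median log2 change of the 10 genes was 0.55, and that of all genes tested was 0.

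Ripk2 (mm10 chr4:16122733-16163647) encodes the kinase that relays signals of the intracellular bacterial sensors NOD1 and NOD2. It stood at 83.6, 61.9 and 69.8 CPM in the GH libraries, against 23.8 and 24.3 CPM in the vehicle libraries. The lowest GH library was well above both vehicle libraries, and GH replicate 1 was the highest. The log2 change was 1.58 ± 0.14 (SE), with an adjusted p of 7.33e-06 (edgeR quasi-likelihood test, Benjamini-Hochberg over all genes tested).

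Tnfaip3 (chr10:19000910-19015657) encodes a ubiquitin-editing enzyme that shuts off signalling upstream of the kinase complex. It stood at 322, 251 and 274 CPM in the GH libraries, against 124 and 118 CPM in the vehicle libraries. Again no library of one group reached the other. Its log2 change was 1.22 ± 0.0987 (SE; adjusted p = 2.89e-06), and by p-value it ranked 7 among all genes tested.

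Nfkbiz (chr16:55811375-55838899) encodes a nuclear IkB-like protein that helps NF-kB to activate a subset of its targets. Its levels were 106, 81.1 and 88.6 CPM with GH, against 39.6 and 38.8 CPM with vehicle. Nfkbia (chr12:55489410-55492647), the gene of the classical IkB inhibitor, was almost the same in the 3 GH libraries at 139, 139 and 139 CPM, against 80.9 and 82.1 CPM with vehicle. Birc3 (chr9:7848699-7873186), a ubiquitin ligase of the TNF receptor complex, had 77.8, 72.0 and 77.5 CPM with GH, against 55.5 and 55.9 CPM with vehicle. Like Ripk2 and Tnfaip3, all 3 genes had every GH library above every vehicle library, as did 16.6% of all genes tested. The log2 change was 1.23 ± 0.105 for Nfkbiz (adjusted p = 4.75e-06), 0.77 ± 0.0708 for Nfkbia (adjusted p = 9.56e-06) and 0.44 ± 0.0657 for Birc3 (adjusted p = 0.00232).

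Without GH replicate 1, Ripk2, Nfkbiz, Tnfaip3 and Nfkbia kept their calls, at log2 changes of 1.45, 1.11, 1.11 and 0.77. Birc3 lost its call without vehicle replicate 2 (adjusted p = 0.0837) or vehicle replicate 3 (adjusted p = 0.0577), each of which leaves 1 vehicle library. Its adjusted p over all alternatives ran from 5.07e-07 to 0.0837.

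Of the members that did not pass, Bcl3, Nfkbie and Nfkb1 were also separate and higher with GH, and Nfkb2 was separate and lower. Bcl3 (chr7:19808462-19822770), a nuclear IkB-like protein that partners with NF-kB homodimers, had 25.4, 21.8 and 22.9 CPM with GH, against 15.9 and 14.7 CPM with vehicle. Its log2 change was 0.62 ± 0.171 (95% interval 0.25 to 0.98; adjusted p = 0.148). Over the alternatives this adjusted p ran from 2.26e-06 to 0.544, and it was under the threshold with DESeq2, without a filter on low counts and in a fit of these groups alone. Nfkbie (chr17:45555703-45563169), a cytoplasmic IkB, had 9.42, 7.06 and 8.86 CPM with GH, against 6.22 and 5.88 CPM with vehicle, a log2 change of 0.48 ± 0.14 (adjusted p = 0.167). It passed without GH replicate 2, at 0.593 (adjusted p = 0.0488), and stood at 0.394 without GH replicate 1 (0.573).

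None of the subunit genes passed. Nfkb1 (chr3:135584655-135691547), whose product is processed to a DNA-binding subunit, had 107, 106 and 110.5 CPM with GH, against 95.4 and 96.1 CPM with vehicle (log2 change 0.17 ± 0.0662, adjusted p = 0.302). Nfkb2 (chr19:46304320-46312385), the precursor of the alternative pathway, had 119.9, 128.0 and 128.2 CPM with GH, against 128.5 and 131.3 CPM with vehicle. Relb (chr7:19606217-19629438), the partner of the processed Nfkb2 product, had 36.2, 37.5 and 36.4 CPM with GH, against 36.6 and 37.9 CPM with vehicle. The 95% interval of the log2 change was -0.21 to 0.11 for Nfkb2 and -0.21 to 0.16 for Relb. Over all 10 genes, 8 had every GH library above every vehicle library, 1 (Nfkb2) had every GH library below, and Relb overlapped. Among all genes tested, 32% were separate, 16.6% higher and 15.3% lower with GH.

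**Figure D3:**
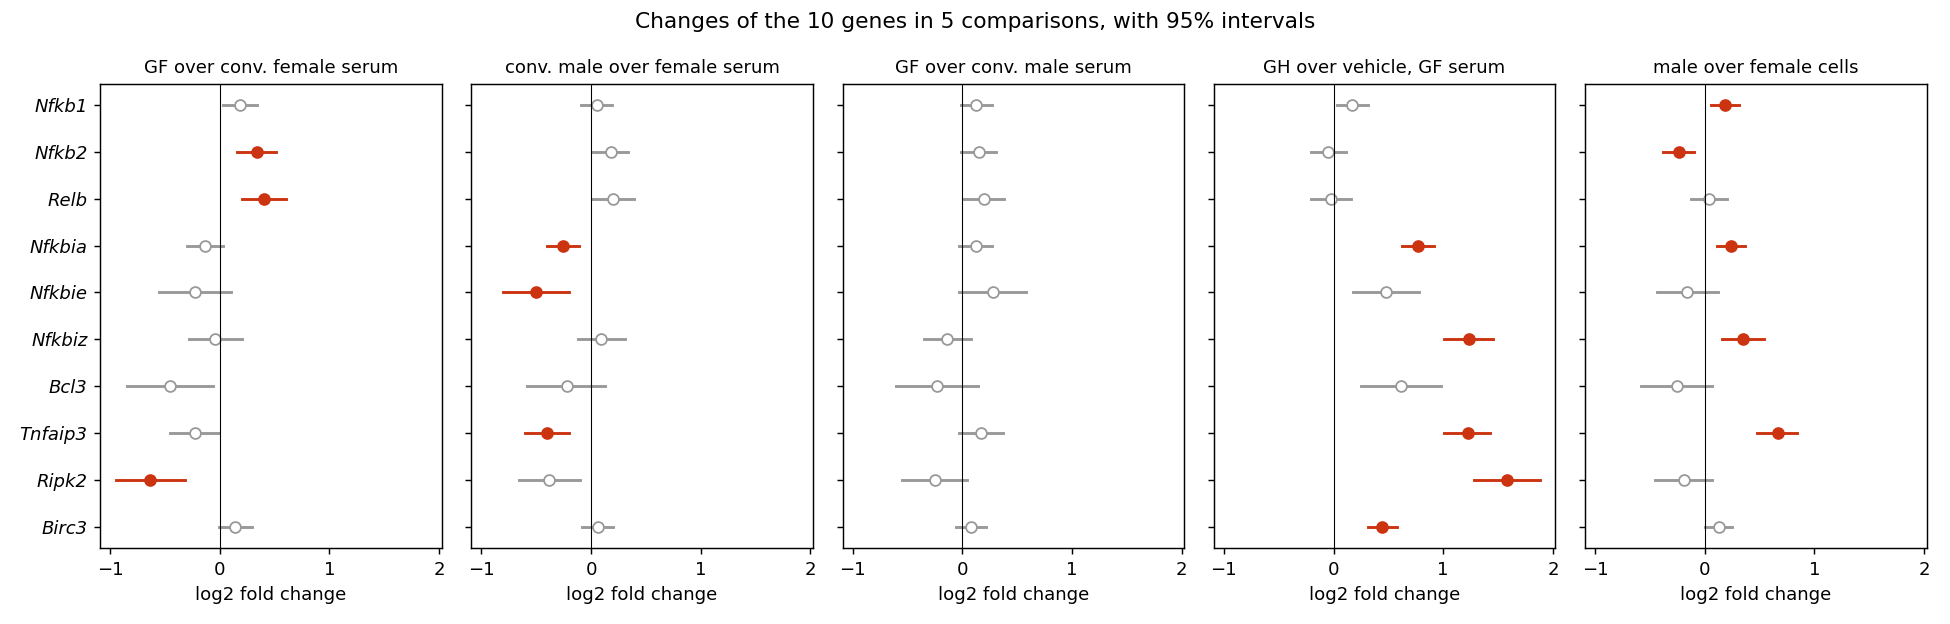
Log2 fold change of each gene with its 95% interval in the 5 comparisons, 1 panel a comparison, with filled points for genes past the threshold. The GH panel holds the highest values, up to 1.58 for Ripk2, and the panel of germ-free female against conventional male serum has no filled point.

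The rest of the pathway was read from lists of its parts, also chosen with earlier results of these data known. None of the 5 other subunit and IkB genes tested passed with GH. Of 14 receptor genes 2 rose and none fell: Tlr2, a sensor of bacterial lipoproteins, averaged 71.2 ± 7.8 CPM with GH (SD, n = 3) and 27.5 ± 2.22 CPM with vehicle (SD, n = 2), and Tnfrsf1b, a TNF receptor, rose by 0.69 on the log2 scale. Of 28 adaptor and kinase genes, Birc2, a ubiquitin ligase related to Birc3, rose by 0.84 and Ikbke, an IKK-related kinase, by 0.67, and the other 26 did not pass. Of 17 other feedback regulators, Zc3h12a, an RNase that degrades inflammatory mRNAs, rose by 1.06 and Socs3, an inhibitor of cytokine signalling through STAT factors, by 0.69. The calls of Tnfrsf1b, Zc3h12a, Socs3 and Ikbke each were lost when 1 or more single libraries were left out.

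Target genes were likewise listed with earlier results known, and 0.511% of all genes tested rose with GH. Among 31 known NF-kB target genes tested, 18 rose with GH and none fell, with a median log2 change of 0.88. The count was 12 to 17 when single libraries were left out. The cytokine gene Il1b had 365, 404 and 436 counts in the GH libraries, against 1 and 2 counts in the vehicle libraries. The pooled ratio was 225 (95% interval 76.7 to 1090, counting error only), and no library of the other groups had more than 2 counts. The chemokine gene Ccl20 had 517, 312 and 460 counts with GH, against 11 and 8 with vehicle, a pooled ratio of 38.0 (24.2 to 63.3). Vcam1, an adhesion molecule, had 48.5, 42.2 and 47.2 CPM with GH, against 6.54 and 6.10 CPM with vehicle (log2 change 2.86 ± 0.174, adjusted p = 8.9e-08). Csf2, a growth factor for myeloid cells, averaged 4.31 ± 1.04 CPM (SD, n = 3) with GH and 1.5 ± 0.285 CPM (SD, n = 2) with vehicle, and its call was lost without either vehicle library (adjusted p up to 0.225; lowest over the alternatives 3.51e-07).

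Markers of other cells that make cytokines were read beside this. None of the 9 Kupffer cell and macrophage markers tested passed with GH, and their summed level was 90.8 to 111 CPM in the GH libraries, against 128 to 137 CPM in the vehicle libraries. Cd68, which made up most of that sum, averaged 95.8 CPM with GH and 124 CPM with vehicle. Clec4f, a defining Kupffer cell marker, averaged 1.79 CPM with GH and 3.01 CPM with vehicle. Adgre1, Csf1r, Timd4, C1qa and C1qc also had lower means with GH. Vsig4, C1qb, Marco and Cd5l had higher means with GH, so the list moved both ways. Ptprc, a marker of all leukocytes, averaged 0.883 CPM with GH and 0.357 CPM with vehicle. The lymphocyte and neutrophil list summed to 1.27 to 2.26 CPM with GH and 1.42 to 1.59 CPM with vehicle, and neither of its 2 tested genes passed. The part of such cells in the change with GH was not tested.

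**Figure D4:**
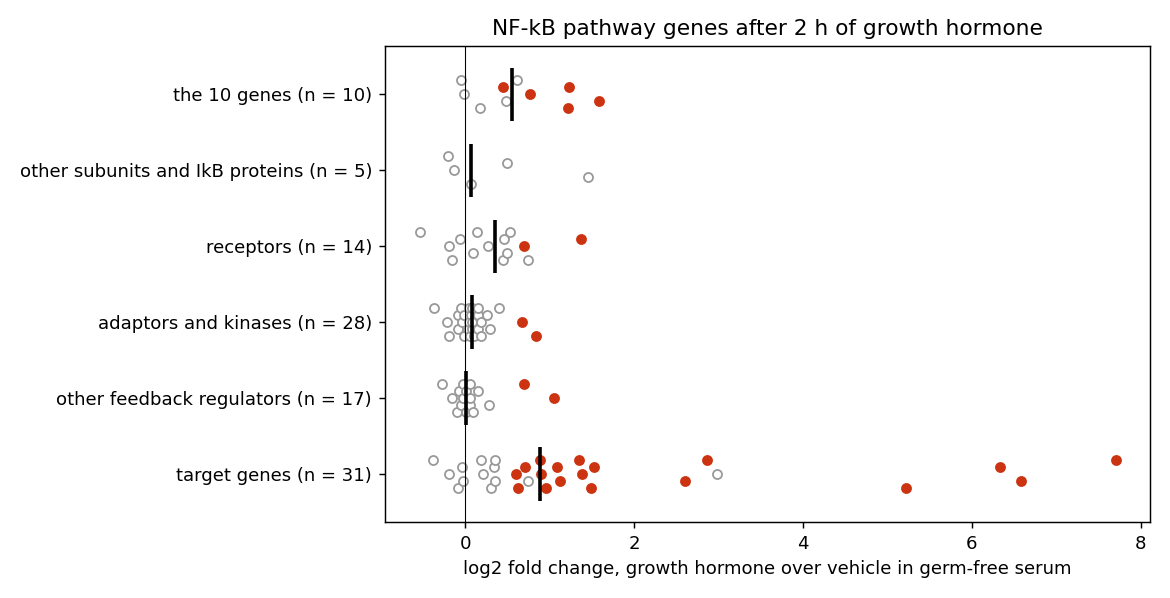
Log2 fold change with GH of every tested gene in the pathway lists, 1 row a list, with filled points for genes past the threshold and a bar at the list's median. The target genes have their median at 0.88 with 18 filled points, all to the right of 0, and the list of other subunits and IkB proteins has none.

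The next comparisons asked what the origin of the serum did to female hepatocytes without GH. They share libraries: both germ-free and conventional male serum were set against the same 2 libraries of conventional female serum, and germ-free against male serum uses groups of the other pairs. The germ-free serum came from females. In germ-free against conventional male serum, microbial status and sex of the serum donors therefore change together and cannot be told apart. In germ-free serum against conventional female serum, 2 of the 10 genes rose and 1 fell, where 6.41% of all genes passed (2.86% as rises and 3.54% as falls). In conventional male against conventional female serum, 3 fell and none rose, where 8.8% of all genes passed (3.95% as rises and 4.85% as falls). In germ-free against conventional male serum none of the 10 passed (edgeR; 1 gene, Relb, had an unadjusted p of 0.0376, and DESeq2 also called 0), where 0.448% of all genes passed (0.184% as rises and 0.264% as falls).

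The rises in germ-free serum were those of the alternative-pathway pair. Relb had 36.6 and 37.9 CPM in germ-free serum, against 28.3 and 28.1 CPM in conventional female serum. Nfkb2 had 128.5 and 131.3 CPM in germ-free serum, against 103.1 and 102.8 CPM in conventional female serum. Replicates of both genes were tight and the groups did not overlap, as was the case for 49.9% of all genes tested. The log2 change was 0.40 ± 0.0962 (SE) for Relb (adjusted p = 0.0209) and 0.34 ± 0.0817 for Nfkb2 (adjusted p = 0.0226). Each lost its call when any 1 of the 4 libraries was left out, with log2 changes of 0.37 to 0.42 and 0.32 to 0.35 and adjusted p up to 0.142 and 0.144 (lowest over the alternatives 0.00502 and 0.00365).

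Ripk2 fell, with 23.8 and 24.3 CPM in germ-free serum, against 43.9 and 30.6 CPM in conventional female serum. The conventional libraries differed more from each other than the germ-free ones did. Its log2 change was -0.63 ± 0.148 (adjusted p = 0.0182), and it was -0.35 without conventional female replicate 2 (adjusted p = 0.289) and -0.87 without conventional female replicate 3 (adjusted p = 0.00142). The call was also lost without germ-free replicate 2 (0.115) or 3 (0.103), and the adjusted p ran from 4.07e-08 to 0.289 over the alternatives. Bcl3 had 15.9 and 14.7 CPM in germ-free serum, against 22.2 and 19.6 CPM in conventional female serum, and did not pass (log2 change -0.45 ± 0.186, adjusted p = 0.17). Of the alternatives, only the fit without a filter on low counts called Bcl3 here (adjusted p = 0.00331). Nfkbia, Nfkbie and Tnfaip3 were each lower in both germ-free libraries than in both conventional ones, at log2 changes of -0.13, -0.22 and -0.23, and none passed. In all, 4 of the 10 genes were separate and higher in germ-free serum and 5 separate and lower, as were 23.7% and 26.2% of all genes tested (49.9% together, with 2 libraries a group).

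In conventional male against conventional female serum, Tnfaip3 and 2 of the 4 inhibitor and IkB-like genes, Nfkbia and Nfkbie, fell. Tnfaip3 had 111, 101 and 110.3 CPM in male serum, against 153 and 130.2 CPM in female serum, a log2 change of -0.40 ± 0.0945 (adjusted p = 0.0149). Nfkbia had 82.5, 70.7 and 71.6 CPM in male serum, against 92.1 and 86.8 CPM in female serum (-0.26 ± 0.0692, adjusted p = 0.0301). Nfkbie had 5.04, 4.92 and 5.01 CPM in male serum, against 7.70 and 6.41 CPM in female serum (-0.50 ± 0.14, adjusted p = 0.0352). In each of the 3 genes every male serum library lay below both female serum libraries, as in 18.6% of all genes tested. Without female serum replicate 2 all 3 lost their calls, at -0.28 (adjusted p = 0.185) for Tnfaip3, -0.22 (0.203) for Nfkbia and -0.36 (0.279) for Nfkbie. Nfkbia lost its call without female serum replicate 3 (0.0614), male serum replicate 2 (0.0754) or 3 (0.0771) as well, and Nfkbie without any 1 male serum library (0.0636 to 0.0788). Over all alternatives the adjusted p ran from 1.12e-05 to 0.185 for Tnfaip3, from 0.0053 to 0.217 for Nfkbia and from 0.0171 to 0.279 for Nfkbie.

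The remaining 7 genes did not pass between the conventional sera. Ripk2 had 26.4, 31.4 and 28.2 CPM in male serum, against 43.9 and 30.6 CPM in female serum, so that the groups overlapped (log2 change -0.38 ± 0.133, adjusted p = 0.0913). Without female serum replicate 2 it was -0.10 (adjusted p = 0.748) and without replicate 3 it was -0.62 and passed (0.00951), with 0.000697 to 0.748 over all alternatives. Nfkb2 and Relb were higher in all male serum libraries than in both female serum libraries, at log2 changes of 0.18 and 0.20. In male serum replicate 2 they had 106.1 and 28.34 CPM, against 103.1 and 28.32 CPM in female serum replicate 2. The margin was thus larger for Nfkb2 and close to a tie for Relb. Both passed without male serum replicate 2, at 0.25 and 0.29 (adjusted p 0.037 to 0.405 and 0.0282 to 0.524 over the alternatives). Bcl3 passed without male serum replicate 1, at -0.471 (adjusted p = 0.048), and stood at -0.041 without male serum replicate 3 (0.892). Of the 10 genes 2 were separate and higher and 3 separate and lower, as were 16.4% and 18.6% of all genes tested (34.9% together). In germ-free against conventional male serum, log2 changes of the 10 genes lay between -0.25 for Ripk2 and 0.28 for Nfkbie, and 4 of the 10 were separate and higher and 2 separate and lower, as were 12.2% and 12.1% of all genes tested (24.3% together).

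Of the target genes, 3 rose and 8 fell in germ-free against conventional female serum, where 2.86% of all genes rose and 3.54% fell. In conventional male against conventional female serum 3 targets rose and 9 fell, against 3.95% and 4.85% of all genes. In germ-free against conventional male serum 3 targets rose and none fell, against 0.184% and 0.264% of all genes. The targets were listed with earlier results known. Cxcl10, a chemokine gene driven by interferon and NF-kB, had 18.2 and 19.5 CPM in germ-free serum, against 3.47 and 3.62 CPM in conventional female serum (log2 change 2.41 ± 0.276, adjusted p = 0.000164). In conventional male serum it had 9.96, 4.23 and 8.98 CPM and also rose against conventional female serum, by 1.13, a call lost when male serum replicate 1 or either female serum library was left out (adjusted p 7.32e-17 to 0.099 over the alternatives). In germ-free against conventional male serum it rose by 1.28, a call lost when either germ-free library was left out (8.11e-30 to 0.231). Gadd45b, a stress-response gene, fell by 0.85 on the log2 scale and Ier3, an early response gene, rose by 0.78 in germ-free against conventional female serum. The call of Gadd45b was lost without germ-free replicate 2 (adjusted p 9.49e-14 to 0.0569 over the alternatives). Csf2 rose by 1.66 in germ-free and by 1.63 in male serum against the same conventional female libraries. The call in germ-free serum was lost without conventional female replicate 2 or germ-free replicate 3 (adjusted p 4.31e-05 to 0.0776). Cxcl1 and Cxcl2, chemokine genes, fell by 1.10 and 1.5 in conventional male against conventional female serum. They rose by 0.62 and 1.07 in germ-free against conventional male serum, and the call of Cxcl1 was lost without germ-free replicate 3 (adjusted p 9.43e-12 to 0.166). Without the pair of libraries rich in Xist, 6 targets were called in germ-free and 5 in male serum against conventional female serum.

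Upstream of the members, Tlr5, the flagellin receptor, was the 1 of 14 receptor genes to fall in germ-free against conventional female serum, with a mean of 2.62 ± 0.348 CPM against 5.37 ± 1.25 CPM (SD, n = 2 each). In conventional male against female serum Tlr5 fell by 0.81 and Cd14, a co-receptor for lipopolysaccharide, by 0.44, while Cd40, a receptor that feeds the alternative pathway, rose by 0.70. Its female serum libraries differed (29.7 and 18.3 CPM, against 33.2, 45.1 and 38.9 CPM in male serum), and without female serum replicate 3 the change was 0.40 and did not pass (adjusted p 2.28e-10 to 0.0986 over the alternatives). In germ-free against conventional male serum Cd14 rose by 0.29 and Cd40 fell by 0.76, and each call was lost when either germ-free library, or male serum replicate 2 or 3, was left out (adjusted p 0.000388 to 0.313 for Cd14 and 8.62e-12 to 0.419 for Cd40 over the alternatives). Among 28 adaptor and kinase genes, Irak3, an inhibitory kinase homologue of IL-1 and Toll-like receptor signalling, fell by 0.64 in germ-free and by 1.07 in male serum against conventional female serum. Birc2 fell by 0.43 and 0.51 in these comparisons, and Ikbke by 0.69 and Xiap, an inhibitor of caspases, by 0.35 in male serum. Traf1, a TNF receptor adaptor, rose by 1.28 in germ-free serum. Of 17 other feedback regulators, Cyld, a deubiquitinase that dampens NF-kB signalling, fell by 0.31 in germ-free serum and none passed in male serum. Several of these calls against conventional female serum were lost when 1 library was left out. In germ-free serum the adjusted p ran over the alternatives from 6.71e-06 to 0.277 for Traf1, whose change ran from 0.91 to 1.74, and from 3.35e-05 to 0.131 for Tlr5. It ran from 0.000475 to 0.295 for Birc2, from 4.24e-08 to 0.0526 for Irak3 and from 0.0202 to 0.348 for Cyld. In male serum it ran from 0.000364 to 0.196 for Tlr5, from 7.44e-07 to 0.0946 for Birc2 and from 0.000272 to 0.265 for Xiap. Leaving out conventional female replicate 2 ended each of these calls except that of Irak3, which was lost without germ-free replicate 3. Hepatocyte markers fell in 5 of 10 in germ-free and 3 of 10 in male serum against conventional female serum. Of all genes tested, 3.54% and 4.85% fell in these comparisons. The part of the hepatocyte markers in these results was not tested.

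The last comparison set male hepatocytes against female hepatocytes in the same male serum (3 libraries each). Of the 10 genes 4 rose and 1 fell. The background is wide here, since 36.7% of all genes passed, 17.6% as rises and 19% as falls. Tnfaip3 showed the largest change of the 10, with 161, 174 and 175 CPM in male cells, against 111, 101 and 110.3 CPM in female cells. Its log2 change was 0.66 ± 0.0856 (adjusted p = 1.53e-05).

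Nfkbiz had 53.6, 55.5 and 55.5 CPM in male cells, against 43.0, 40.2 and 46.1 CPM in female cells (log2 change 0.35 ± 0.0914, adjusted p = 0.00665). Nfkbia had 88.1, 87.2 and 90.3 CPM in male cells, against 82.5, 70.7 and 71.6 CPM in female cells (0.24 ± 0.0625, adjusted p = 0.00633). In both genes the groups did not overlap. Nfkb1 had 96.9, 99.0 and 101.9 CPM in male cells, against 93.1, 81.3 and 88.3 CPM in female cells (0.18 ± 0.0592, adjusted p = 0.0247). Nfkb2 fell, with 102.0, 99.0 and 96.1 CPM in male cells, against 129.0, 106.1 and 115.5 CPM in female cells (-0.24 ± 0.067, adjusted p = 0.0102). The subunit genes thus had opposite signs, and Relb, at 33.1, 33.3 and 33.4 CPM in male cells, lay within the female range of 28.3 to 37.3 CPM. In all, 5 of the 10 genes were separate and higher in male cells and 2 separate and lower, as were 23.2% and 24.3% of all genes tested (47.6% together).

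The smaller calls depended on the scaling and on single libraries. With library size only, Nfkb1 stood at 0.09 (adjusted p = 0.207) and Nfkbia at 0.15 (0.0515). Nfkb1 also lost its call without female replicate 2 (0.104) or male replicate 3 (0.075), and Nfkb2 without female replicate 1 (0.0565) or male replicate 3 (0.0595). Over the alternatives the adjusted p ran from 0.00947 to 0.207 for Nfkb1, from 0.000896 to 0.0595 for Nfkb2 and from 0.000559 to 0.0515 for Nfkbia. Scaling by library size only moved the share of rises among called genes to 33.6%, against 48% with TMM, and the median of all genes to -0.108, against -0.021. Bcl3, which did not pass (-0.253, adjusted p = 0.217), passed without female replicate 3, at -0.435 (0.0188). Without female replicate 1 its change was -0.004 (0.984).

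The counts of pathway and marker lists below stand beside 36.7% of all genes tested that passed, 17.6% as rises and 19% as falls. In the wider pathway, Rela, the main activating subunit, fell by 0.36 in male cells, 1 of 5 other subunit and IkB genes. Of 14 receptor genes 5 rose, among them Il1r1, the IL-1 receptor, at 36.6 ± 1.9 CPM in male cells and 19.2 ± 1.02 CPM in female cells (SD, n = 3 each), Il1rap, its co-receptor, at 0.69, Tlr4, the lipopolysaccharide receptor, at 0.78, and Cd14 at 0.75 on the log2 scale, and 2 fell. Of 28 adaptors and kinases 7 rose, among them Map3k8 at 1.13 and Irak3 at 0.82, and 10 fell, among them Traf1 at -1.81 and Map3k14, the kinase of the alternative pathway, at -0.60. Of 17 other feedback regulators 4 rose, Socs3 by 0.89 and Cyld by 0.48 among them, and 6 fell, Tnip1 by 0.40 and Otud7b by 0.38 among them. Of 31 target genes 9 rose, with Cxcl10 at 68.0 ± 0.894 CPM in male cells and 7.72 ± 3.07 CPM in female cells (SD, n = 3 each), Ccl5 at 2.77 and Ptgs2 at 2.21 on the log2 scale, and 5 fell, Csf2 by 1.08 among them. Markers of several cell types moved with this comparison. Of the hepatocyte markers 8 of 10 rose and 1 fell. Of the endothelial markers 6 of 7 rose, with a summed level of 34.1 to 37.4 CPM in male cells, against 12.5 to 14.4 CPM in female cells. Of the stellate cell and fibroblast markers 5 of 9 rose and 1 fell. Of the 9 Kupffer cell and macrophage markers tested 1 rose and 0 fell, with a median log2 change of -0.27. Their summed level was 151.5 to 171.2 CPM in male cells, against 83.4 to 102.1 CPM in female cells. Most of that sum was Cd68, with means of 154 and 79 CPM. The part of cell composition in these results was not tested, and it cannot be told apart from the donor.

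Genes with patterns most like each member were found by the root mean square difference of centred log2 CPM over the 13 libraries, among 12932 genes with a mean count of at least 50. Tnfaip3 and Nfkbiz were each other's nearest member, 0.162 log2 units apart, where their own SDs over the libraries were 0.519 and 0.477. The nearest other genes were Ccl2 (0.192) and Pfkfb3 (0.194) for Tnfaip3, and Tlr2 (0.207) and Csf1 (0.212) for Nfkbiz. Ripk2, with the largest SD at 0.617, was nearest to Csf1 (0.231). Nfkbia was nearest to Irf1 (0.143) and Stx11 (0.158), and Birc3 to Lif (0.121) and Stx11 (0.126). For the subunits and for Nfkbie and Bcl3, whose SDs were 0.136 to 0.364, the nearest were Ireb2 (0.073) and Degs1 (0.075) for Nfkb1, Cndp2 (0.076) and Pum2 (0.081) for Nfkb2, and Ktn1 (0.073) and B4galt5 (0.081) for Relb. They were Ppap2b (0.135) and Cenpe (0.147) for Nfkbie, and Zfp174 (0.186) and Igfals (0.197) for Bcl3. For every member but Tnfaip3 and Nfkbiz, a non-member lay nearer than any other member. The distances were 0.231 against 0.349 for Ripk2, 0.135 against 0.256 for Nfkbie and 0.121 against 0.122 for Birc3. The libraries share groups and depth, so these distances describe and test nothing.

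Exons of 2 members overlap genes on the other strand in the annotation: Nfkb2 overlaps Psd and AC114539.1, and Bcl3 overlaps Gm16175. Those genes had mean counts of 4.7, 3.6 and 8.7 per library. Whether the counting used strand is not given in the sources used here.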

How the data were processed

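Total RNA was made into stranded libraries after ribosomal RNA depletion, per the labels' protocols. The authors deposited raw whole-number counts of reads over exons per gene. STAR 2.4.0i and the mm10 build are named in the submitters' processing notes. The counting program, annotation and strand setting were not stated in the sources used. The labels list 15 samples. The table has 2 columns that share 1 header name and could not be assigned to a sample. They were left out and 13 libraries were used, as the design had been written for columns with names of their own.

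TMM scaling and the filterByExpr filter (minimum count 10) were applied in edgeR 4.0.16 (R 4.3.3, limma 3.58.1). One model of 5 groups without covariates left 8 residual degrees of freedom, with a biological coefficient of variation of 9.02%. Contrasts were tested with the two-sided quasi-likelihood F test, with Benjamini-Hochberg adjustment over 17405 genes and a threshold of 0.05. The scripts were tested on simulated counts with known changes. Library totals ran from 34097400 to 48742274 counts. Intervals of pooled count ratios are exact 95% intervals and cover counting error only. Exon lengths and coordinates came from GENCODE M21 (mm10), and promoters from RefSeq. Of 164 listed genes, 162 matched by symbol and 2 by gene ID. DESeq2 1.42.0 was an alternative.

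The members and lists were chosen with earlier results of these data known. All members were named. Of each other pathway list, up to 4 genes a comparison with the largest change were taken, among called genes whose mean count reached 50, and for each member the 2 non-members of most like pattern, of which 1 is not reported here. Single marker genes were named after their values were seen.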

Additional observations from a re-analysis of the deposited data

How the results depend on the processing

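The number of the 10 genes past the threshold was 3 in germ-free against conventional female serum, 3 in conventional male against female serum, 0 in germ-free against conventional male serum, 5 with GH and 5 in male against female hepatocytes. In a fit of only the 2 groups compared it was 1 in the first of these and 0 in the second, and without the pair of libraries rich in Xist it was 0 in both. With library size only it was 3 in male against female hepatocytes. Leaving out single libraries gave 0 to 1, 0 to 3, 0 to 0, 4 to 6 and 3 to 6. With the replicate number as a block it was 3, 2, 0, 5 and 5. Same-numbered libraries deviated together with correlations of -0.02 to 0.13 across genes, never all above 0.1 within a comparison, so the numbers were not taken as pairs. No other setting moved these counts by over 1.5 times. Directions turned only in genes that had not passed: Relb in male against female hepatocytes (-0.049 with library size only, and -0.051 to 0.147 without single libraries, lowest without female replicate 2), Nfkbiz in germ-free against conventional female serum (0.09 without the pair rich in Xist, and -0.165 to 0.087 without single libraries, highest without conventional female replicate 2), Birc3 in male against female serum (-0.01 without that pair, and -0.009 to 0.124 without single libraries), Nfkbiz there (-0.029 without conventional female replicate 3, up to 0.223 without replicate 2), Bcl3 in germ-free against male serum (-0.411 to 0.019, highest without male serum replicate 1) and Relb with GH (-0.044 to 0.006, highest without vehicle replicate 3). The cause was not tested. The count of all genes moved more. With GH it was 102, against 243 with DESeq2, 796 without a filter, 62 with the block, 156 in the fit of these groups alone and 33 to 190 without single libraries. In germ-free against male serum it was 78, against 276, 622, 31, 286 without the pair rich in Xist, and 2 to 160. In germ-free against conventional female serum it was 1115, against 1731 without a filter, 611 in the fit of these groups alone, 367 without that pair, and 274 to 1225. In male against female serum it was 1532, against 468, 825, and 663 to 1652. Target genes called in male against female serum numbered 12, against 7 in the fit of these groups alone, 5 without the pair, and 5 to 14 without single libraries. In germ-free against conventional female serum they numbered 11, against 6 and 3 to 11, and in germ-free against male serum 3, against 5 without a filter and 1 to 4. With 2 or 3 libraries a group, a change that did not pass is not shown to be absent.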
